A study of Mus musculus with 12 samples.

Results

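The 7 genes described here encode proteins known to hold back growth signalling through mTORC1 or the uptake of glucose: Ddit4, Sesn1, Sesn3, Pik3ip1, Txnip, Arrdc3 and Arrdc4. They were picked by name from a table of 38339 genes in which each matched 1 row, and they were picked with their response to dexamethasone already known. The change with dexamethasone is therefore given for them as a description, with no p-value. The name under which they were grouped calls all 7 induced, and the data went against that for 3 of them: Arrdc4 was low in both treatments and differed little between them, and Arrdc3 and Sesn3 were each lower with dexamethasone in 1 leukemia.

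Total RNA was sequenced from bone marrow of mice carrying transplanted primary T-ALL (T-lineage acute lymphoblastic leukemia, which arises from T-cell precursors) on a C57BL/6 x 129Sv/Jae F1 background. The DEX group was 6 recipients given dexamethasone, a synthetic glucocorticoid, and the VEH group was 6 recipients given vehicle; all were moribund when treated and were killed 4 hours later. Each of 6 leukemias gave 1 DEX and 1 VEH library, so the replicate is the leukemia and each treatment of a leukemia is a single mouse. Their codes in the labels, numbered here, are 73A-46B for leukemia 1, 73M-19A for leukemia 2, 78A-143B for leukemia 3, 2M-127B for leukemia 4, 20M-116B for leukemia 5 and JW-81-59B for leukemia 6, and the labels used here give neither the ages of the mice nor the lesion behind each leukemia.

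DDIT4 (also called REDD1) acts on the TSC complex, which switches off the small GTPase RHEB and with it mTORC1, the kinase complex that drives protein synthesis and growth. Sestrins bind the GATOR2 complex and so damp the signal that amino acids send to mTORC1, while PIK3IP1 is a membrane protein that binds the catalytic subunit of PI3K and restrains it upstream of AKT. TXNIP, ARRDC3 and ARRDC4 are alpha-arrestins, adaptors that bring NEDD4-family ubiquitin ligases to membrane proteins; TXNIP and ARRDC4 are known for removing glucose transporters from the cell surface, and TXNIP also binds thioredoxin. Transcription of TXNIP and ARRDC4 is known to follow glucose through the paired factors MondoA (gene Mlxip) and MLX, and glucocorticoids are known to raise DDIT4 and TXNIP in lymphoid cells.

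The promoters of Ddit4, Txnip and Arrdc4 are printed because Ddit4 and Txnip had the widest changes of the set, while Arrdc4 shares its glucose-responsive regulation with Txnip and hardly changed. Each is the RefSeq window on GRCm38.p6 from 250 bases before to 50 bases after an annotated start, written 5′ to 3′ on the strand of the gene; capitals mark every match to a searched motif. The windows lie at chr10:59951721-59952020 on the minus strand for Ddit4, chr3:96557707-96558006 on the plus strand for Txnip and chr7:68749189-68749488 on the minus strand for Arrdc4.
Ddit4: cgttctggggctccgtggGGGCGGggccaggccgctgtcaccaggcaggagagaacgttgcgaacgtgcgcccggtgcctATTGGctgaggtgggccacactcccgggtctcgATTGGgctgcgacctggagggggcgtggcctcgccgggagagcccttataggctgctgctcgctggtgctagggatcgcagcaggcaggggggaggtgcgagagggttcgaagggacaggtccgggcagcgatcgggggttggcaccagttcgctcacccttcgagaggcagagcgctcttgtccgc
Txnip: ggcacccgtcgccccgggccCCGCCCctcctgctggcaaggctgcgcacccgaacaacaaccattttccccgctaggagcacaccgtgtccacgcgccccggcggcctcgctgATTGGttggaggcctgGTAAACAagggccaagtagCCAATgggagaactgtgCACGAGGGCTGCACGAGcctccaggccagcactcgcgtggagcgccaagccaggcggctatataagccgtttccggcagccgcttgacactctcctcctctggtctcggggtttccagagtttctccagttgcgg
Arrdc4: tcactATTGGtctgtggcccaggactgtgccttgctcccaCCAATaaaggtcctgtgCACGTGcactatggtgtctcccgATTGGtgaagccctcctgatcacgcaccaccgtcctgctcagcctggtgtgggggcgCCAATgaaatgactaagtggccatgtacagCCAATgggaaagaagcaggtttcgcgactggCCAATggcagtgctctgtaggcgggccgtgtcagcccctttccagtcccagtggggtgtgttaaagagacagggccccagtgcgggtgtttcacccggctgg

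RefSeq listed 10 such windows for the 7 genes, with 2 starts for Sesn1, 3 for Arrdc3 and 1 for each of the others. Both strands were searched for the glucocorticoid receptor element (an inverted repeat of AGAACA with any 3 bases between the arms) and for its single arm, for the E-box CACGTG and for a pair of E-boxes with any 5 bases between them, and for the CCAAT box. The other motifs were the FOXO site TGTTTAC, the ATF4 composite element TGATGNAA, the CRE TGACGTCA, the GC box GGGCGG and the TATA box TATAAA. The arm lies within the full receptor element, and the E-box within its paired form. Neither the receptor element nor its arm was in any of the 10 windows. The element was in 0.00913% of all 32851 promoter windows, and the arm was in 6233 of them. That says only that these letters are not in these windows.

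CCAAT was in 8 of the 10 windows and in 6 of the 7 genes, against 37.4% of all windows. It was absent from the windows of Pik3ip1, which held none of the searched motifs, and of the second Arrdc3 start. The Arrdc4 window held 6 CCAAT matches, and Arrdc4 was the single member with an E-box, which 7.15% of all windows hold. TGTTTAC, in 3.65% of all windows, was in the Txnip window at 121 bases before the start (as GTAAACA) and in 1 of the Sesn1 windows at 23 bases after it. In Txnip that match lies between a pair of CCAAT matches that start 137 and 102 bases before the start. A further pattern, a pair of CACGAG with any 5 bases between them, was added after the Txnip sequence had been read. It begins 85 bases before the Txnip start, and Txnip held the single match among all 32851 windows. Since the pattern was taken from that sequence, its match in Txnip was given in advance and nothing is read from the count. GGGCGG was in 8 of the 10 windows and in 5 of the 7 genes, against 35.7% of all windows. A pair of the 3 Arrdc3 windows overlaps and shares a CCAAT and a GGGCGG match, so the window counts of both motifs count these sites more than once. The 10 windows were 54.7% to 73.0% G and C, against 53.8% over all promoter windows. The ATF4 element (3.97% of all windows), the CRE (1.79%), the TATA box (13.6%) and the paired E-box (0 of 32851) had no match in the 10 windows, which says nothing about whether the factors bind.

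**Figure D1:**
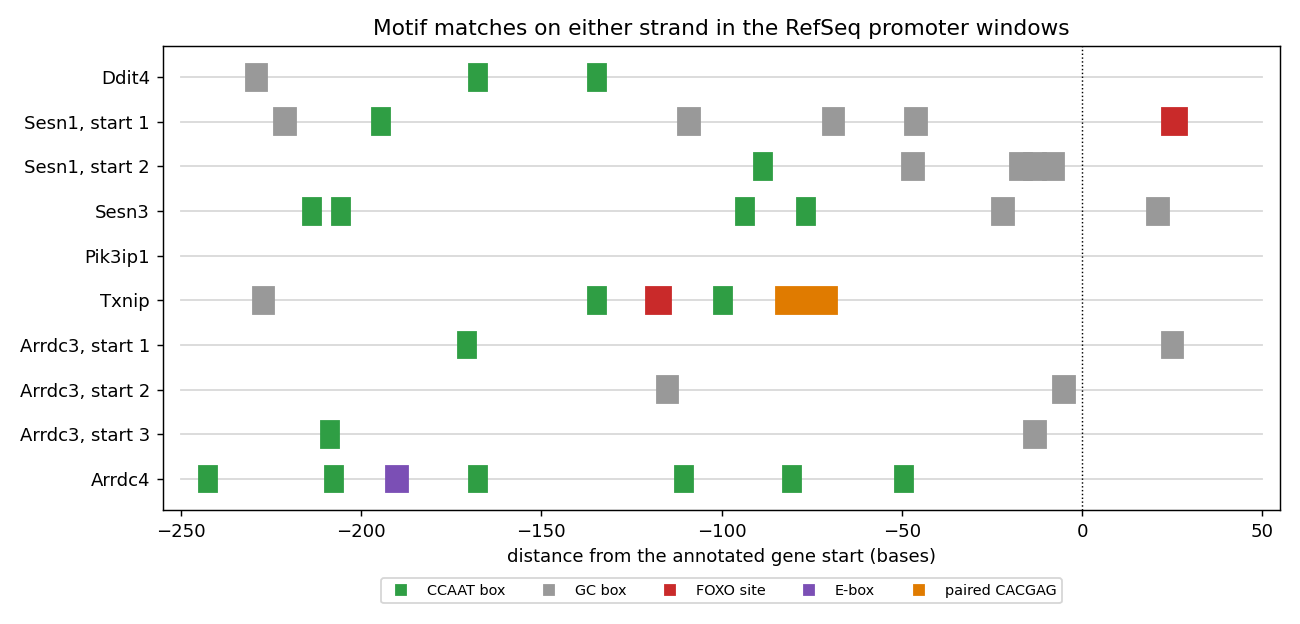
Matches to the searched motifs on either strand (coloured blocks, drawn to scale) along the 10 RefSeq promoter windows of the 7 genes, by distance in bases from the annotated start (dotted line). Green CCAAT matches appear in 8 of the 10 windows, and the E-box is in Arrdc4 alone. The paired CACGAG pattern is in Txnip alone, and it was added after the Txnip sequence had been read.

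Levels were deposited as FPKM (fragments scaled by gene length and by mapped fragments). They summed to between 1466471 and 2019058 per library. The sums averaged 1766130 in DEX libraries and 1598214 in VEH libraries. An estimated 11700000 to 36200000 fragments were found in 11 libraries, and the VEH library of leukemia 2 gave no usable estimate. Of 4 tested genes known to respond to glucocorticoids, 3 rose: Fkbp5, for example, averaged 633 ± 78.1 FPKM in DEX libraries and 305 ± 47.9 FPKM in VEH libraries (SD, n = 6 each; limma adjusted p = 0.00179). Of all tested genes, 4.27% were called higher in DEX and 9.28% lower, the background for the marker counts here. T-lineage markers summed to 1141 to 1826 FPKM in DEX libraries and 1229 to 1993 FPKM in VEH libraries. All 10 were tested, with 0 higher and 3 lower. The 10 granulocyte markers summed to 1530 to 5427 FPKM in DEX libraries and 2310 to 9027 FPKM in VEH libraries, lower in DEX in 5 of 6 leukemias, with 0 of 10 higher and 1 lower. Sums of 7 monocyte and macrophage markers were 44.9 to 381 FPKM in DEX libraries and 111 to 625 FPKM in VEH libraries. Erythroid markers (9) summed to 14.2 to 151 FPKM in DEX libraries and 8.67 to 1178 FPKM in VEH libraries. B-lineage markers (8) summed to 1.14 to 8.4 FPKM in DEX libraries and 1.23 to 51.6 FPKM in VEH libraries. The highest erythroid and B-lineage sums came from the VEH library of leukemia 2, the library without a depth estimate. Megakaryocyte markers (4) reached at most 10.98 FPKM in DEX libraries and 12.01 FPKM in VEH libraries, and NK markers (4) 6.7 and 8.95 FPKM. Stromal and endothelial markers (6) summed to 39.6 to 53.2 FPKM in DEX libraries and 54.3 to 57.1 FPKM in VEH libraries. Most of that sum was Pecam1, also expressed by leukocytes. Pecam1 averaged 40.3 FPKM in DEX libraries and 50.2 FPKM in VEH libraries (limma adjusted p = 0.037). The other markers of this list each averaged higher in DEX libraries, at no more than 4.30 FPKM. The part of these cells in the differences given next was not tested. In bulk marrow, fewer cells of a type and less RNA per cell cannot be told apart.

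FPKM is a level per length, so the genes can be set side by side. In DEX libraries the order of mean levels was Txnip, Ddit4, Pik3ip1, Sesn1, Sesn3, Arrdc3 and Arrdc4, and the order in VEH libraries was the same. Txnip lay above Ddit4 in 6 of 6 libraries of each group, without overlap of their ranges. Ddit4 and Pik3ip1 had overlapping ranges in both groups. Ddit4 was the higher in 6 of 6 DEX libraries, against 3 of 6 VEH libraries, where the means were close at 48.3 and 47.4 FPKM. Sesn1 and Sesn3 could not be ordered, since their ranges overlapped in both groups and Sesn1 was the higher in 3 of 6 libraries of each. Sesn3 and Arrdc3 overlapped in DEX libraries but not in VEH libraries.

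**Figure D2:**
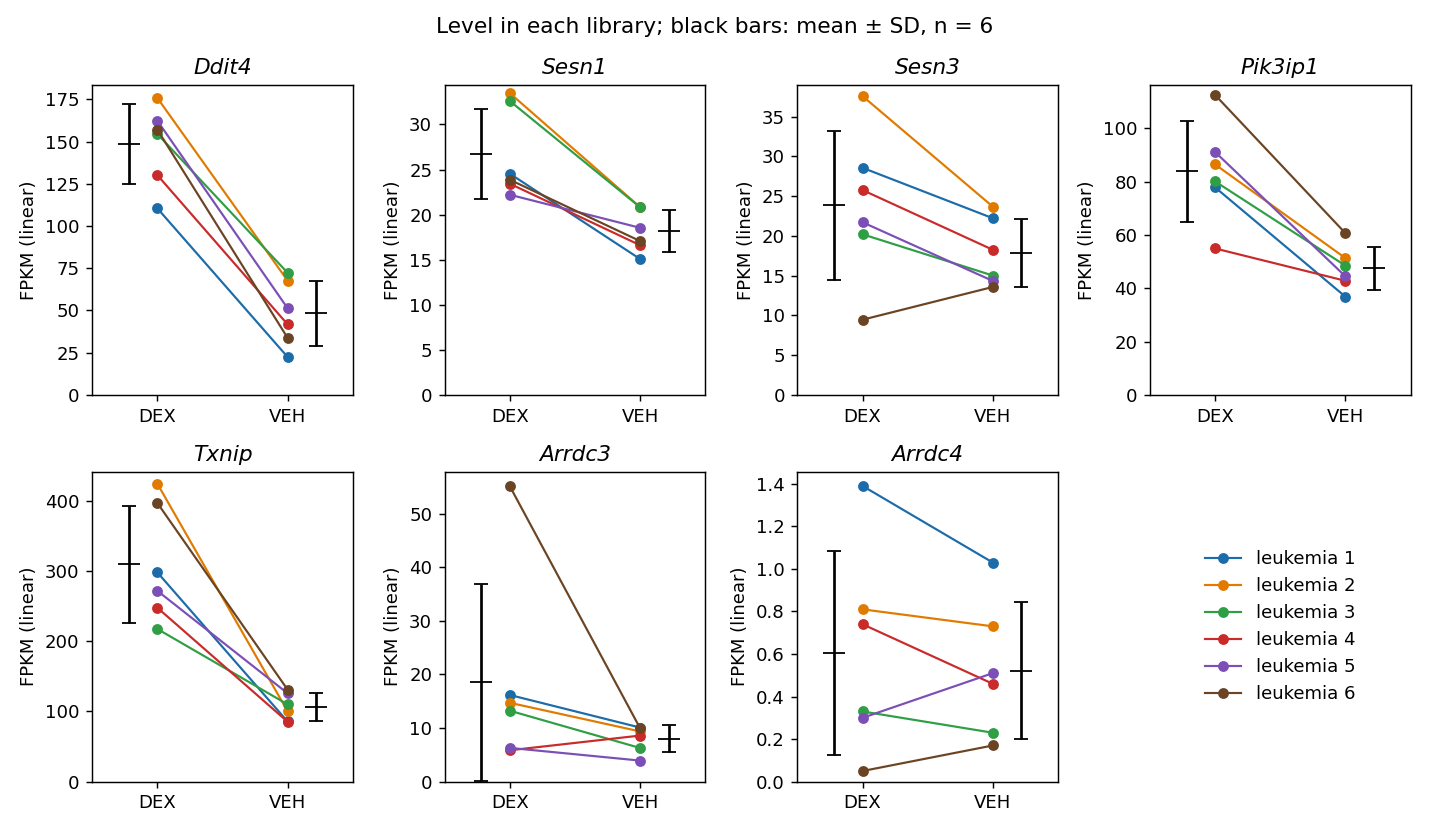
FPKM (linear axis) of the 7 genes in each library, DEX on the left and VEH on the right of each panel; lines join the libraries of a leukemia, and black bars give the mean ± SD of 6 libraries. Ddit4, Txnip and Sesn1 had every DEX library above every VEH library, while Arrdc3 reached 55.1 FPKM in the DEX library of leukemia 6 and Arrdc4 reached at most 1.39 FPKM.

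Ddit4 (ENSMUSG00000020108, GRCm38 chromosome 10, 59949669 to 59951834, minus strand, protein-coding) ranged from 110.5 FPKM to 175.9 FPKM in DEX libraries with a median of 155.8 FPKM, and from 22.5 to 72.4 FPKM in VEH libraries with a median of 46.6 FPKM. The groups did not overlap: the lowest DEX library, from leukemia 1, stood above the highest VEH library, from leukemia 3. Leukemias 1 and 6 had the lowest VEH levels, at 22.5 and 33.9 FPKM, and the widest ratios of DEX to VEH, at 4.91 and 4.64. Leukemia 3 had the highest VEH level and the narrowest ratio, at 2.14. Across the 6 leukemias the difference in log2(FPKM + 1) averaged 1.69 ± 0.45 (SD, n = 6). The spread between libraries was wider in VEH, where the highest was 3.22 times the lowest, than in DEX, where it was 1.59 times; whether these spreads differ was not tested.

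The sestrins showed smaller differences. Sesn1 (ENSMUSG00000038332, chromosome 10, 41809935 to 41908424, plus strand) ranged from 22.2 to 33.5 FPKM in DEX libraries with a median of 24.2 FPKM, and from 15.1 to 20.8 FPKM in VEH libraries with a median of 17.8 FPKM. Every DEX library stood above every VEH library, by a narrow margin. The log2 difference of Sesn1 averaged 0.52 ± 0.16 (SD, n = 6), with ratios from 1.198 in leukemia 5 to 1.63 in leukemia 1.

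Sesn3 (ENSMUSG00000032009, chromosome 9, 14275067 to 14333101, plus strand) ranged from 9.46 to 37.6 FPKM in DEX libraries with a median of 23.7 FPKM, and from 13.6 to 23.7 FPKM in VEH libraries with a median of 16.6 FPKM. The groups overlapped, and the lowest value of both groups came from leukemia 6. There Sesn3 was lower with dexamethasone, at 9.46 FPKM in DEX and 13.6 FPKM in VEH, whereas the other 5 leukemias had ratios of DEX to VEH from 1.29 to 1.59. The log2 difference averaged 0.33 ± 0.41 (SD, n = 6), and 0.49 without leukemia 6.

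The third sestrin, Sesn2, a known target of ATF4 and not among the 7, averaged 2.41 ± 0.85 FPKM in DEX libraries and 2.26 ± 0.26 FPKM in VEH libraries (SD, n = 6 each). Its log2 difference was 0.03 ± 0.17 (SE; limma adjusted p = 0.930), and in leukemia 6 it stood at 0.98 FPKM in DEX against 2.52 FPKM in VEH. Ddit4l, the close relative of Ddit4, was at most 0.02 FPKM in DEX libraries and 0.04 FPKM in VEH libraries.

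Pik3ip1 (ENSMUSG00000034614, chromosome 11, 3330401 to 3342971, plus strand) ranged from 54.9 to 112.5 FPKM in DEX libraries with a median of 83.3 FPKM, and from 36.9 to 60.7 FPKM in VEH libraries with a median of 46.5 FPKM. It was higher with dexamethasone within each of the 6 leukemias, but the groups overlapped, because the DEX library of leukemia 4 (54.9 FPKM) lay under the VEH library of leukemia 6 (60.7 FPKM). Leukemia 4 had the narrowest ratio, 1.28, and leukemia 1 the widest, 2.11. The log2 difference averaged 0.79 ± 0.26 (SD, n = 6).

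Txnip (ENSMUSG00000038393, chromosome 3, 96557957 to 96561883, plus strand) was the most abundant of the 7. It ranged from 217 to 424 FPKM in DEX libraries with a median of 285 FPKM, and from 85.4 to 131 FPKM in VEH libraries with a median of 105 FPKM. The groups did not overlap, and the log2 difference averaged 1.51 ± 0.41 (SD, n = 6). Leukemia 2 had the widest ratio of DEX to VEH, 4.23, and leukemia 3 the narrowest, 1.98. Leukemia 3 thus had the narrowest ratios of both Ddit4 and Txnip.

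Arrdc3 (ENSMUSG00000074794, chromosome 13, 80883384 to 80896042, plus strand), known as an adaptor for the trafficking of the beta-2 adrenergic receptor, ranged from 5.86 to 55.1 FPKM in DEX libraries with a median of 14.0 FPKM, and from 3.93 to 10.1 FPKM in VEH libraries with a median of 8.99 FPKM. The groups overlapped and the mean rested on leukemia 6, where Arrdc3 stood at 55.1 FPKM in DEX and 9.96 FPKM in VEH. Leukemia 4 went the other way, with 5.86 FPKM in DEX and 8.60 FPKM in VEH. The log2 difference averaged 0.77 ± 0.92 (SD, n = 6), and 0.46 without leukemia 6.

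Arrdc4 (ENSMUSG00000042659, chromosome 7, 68736995 to 68749241, minus strand) ranged from 0.05 to 1.39 FPKM in DEX libraries with a median of 0.535 FPKM, and from 0.17 to 1.03 FPKM in VEH libraries with a median of 0.485 FPKM. The ranges overlapped almost fully, and 4 of 6 leukemias were higher with dexamethasone. The log2 difference averaged 0.05 ± 0.20 (SD, n = 6), on a scale that understates changes at such low levels. A single fragment was estimated to be worth 0.0071 to 0.022 FPKM for this gene, so the lowest library rested on few fragments. Arrdc4 was highest in leukemia 1 in both groups, which also had the highest summed level of 10 granulocyte markers in both (5427 FPKM in DEX, 9027 FPKM in VEH), and the part of these cells in Arrdc4 was not tested.

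**Figure D3:**
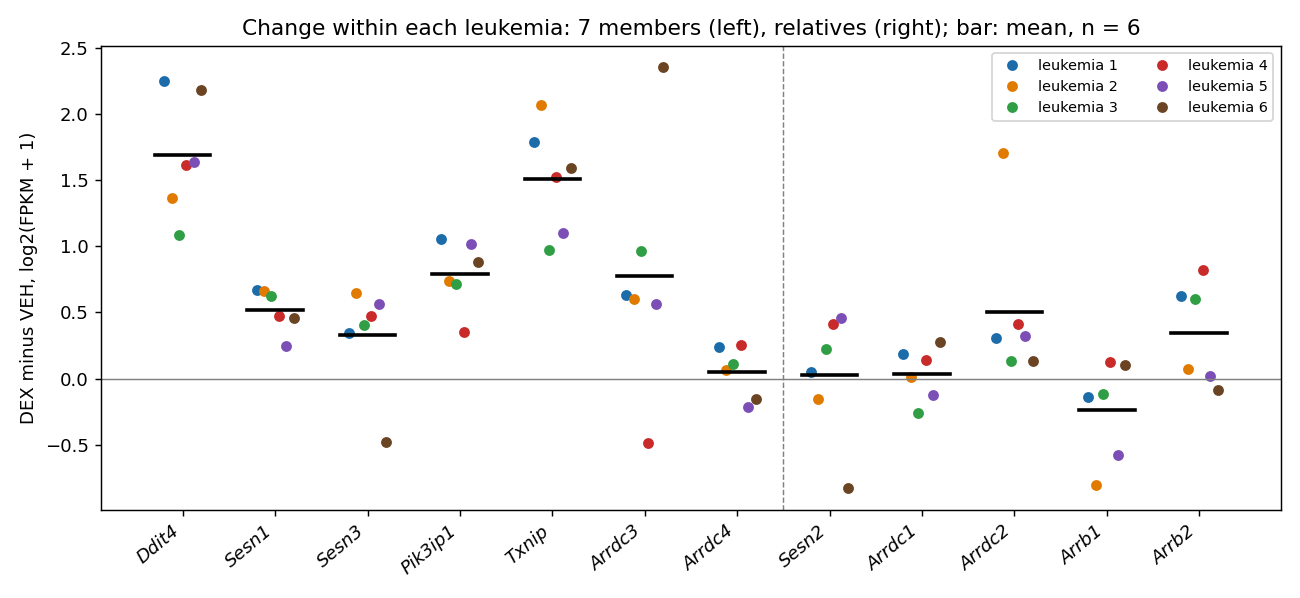
DEX minus VEH difference in log2(FPKM + 1) within each leukemia (points, coloured by leukemia) for the 7 genes and, right of the dashed line, 5 relatives; black bars are means of 6 leukemias. All 6 leukemias lie above 0 for Ddit4, Sesn1, Pik3ip1 and Txnip, and leukemia 6 stands far above the others for Arrdc3 and below 0 for Sesn3.

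A limma fit with leukemia as a block covered the 12358 genes that reached 1 FPKM in at least 6 of 12 libraries. Of the 7 genes, 6 passed that filter, and Arrdc4 did not. Ddit4, Txnip, Pik3ip1 and Sesn1 were among the genes called higher in DEX at an adjusted p under 0.05, a call that 4.27% of tested genes received, and Arrdc3 and Sesn3 were not. The same 4 genes were higher in all 6 leukemias, as were 5.97% of tested genes. Ddit4, Txnip and Sesn1 had every DEX library above every VEH library, as did 0.388% of tested genes. Since the set was picked on this contrast, nothing is read from these counts.

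Levels between leukemias were not used in picking the genes and could be tested. An F test of the leukemia coefficients asks whether the leukemias differ once the average change with dexamethasone is removed, and 51.1% of tested genes passed it. Of the 6 members tested, 4 passed, which is no more than a description against that background. Sesn3 differed most clearly between leukemias (limma adjusted p = 0.0147): leukemia 2 was highest in both groups, at 37.6 FPKM in DEX and 23.7 FPKM in VEH, and leukemia 6 lowest, at 9.46 FPKM in DEX and 13.6 FPKM in VEH. This call held when any single leukemia was left out, and ended without the filter on low values (adjusted p = 0.063).

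Ddit4 also differed between leukemias (limma adjusted p = 0.0343), with leukemia 1 lowest in both groups. Without leukemia 1 the call ended (adjusted p = 0.142). Pik3ip1 differed (limma adjusted p = 0.0347) with leukemia 6 highest in both groups, and without leukemia 6 the call ended (adjusted p = 0.179). Sesn1 passed (limma adjusted p = 0.0419), but the call ended without leukemia 1, 2, 3, 4 or 6 (adjusted p = 0.0518 to 0.103). Txnip (limma adjusted p = 0.166) and Arrdc3 (adjusted p = 0.0616) did not pass, although Arrdc3 did so without leukemia 4 (adjusted p = 0.0279). Rescaled to a fixed sum per library, Ddit4 (adjusted p = 0.0788), Pik3ip1 (0.176) and Sesn1 (0.194) no longer passed.

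The genes most like each member over the 12 libraries were found by Pearson's r of log2(FPKM + 1) among tested genes averaging at least 3 FPKM. Libraries of a leukemia are related and treatment moves many genes together, so r is only a description. Ddit4 was most like Pdcd4 (r = 0.97), which encodes an inhibitor of the translation factor eIF4A, and then Elmod3 (r = 0.96). Pdcd4 stood at 189 ± 16.6 FPKM in DEX libraries and 98.2 ± 13.4 FPKM in VEH libraries (SD, n = 6 each). Txnip was most like Zfp1 (r = 0.96) and E230001N04Rik (r = 0.94), and Pik3ip1 most like Tsc22d3 (r = 0.93), the gene of the glucocorticoid-induced leucine zipper, and Inpp5k (r = 0.93).

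Sesn1 was closest to Atmin (r = 0.97) and E230001N04Rik (r = 0.91), and Sesn3 to Ccnyl1 (r = 0.95) and Herc4 (r = 0.92). Arrdc3 was closest to Plaur (r = 0.93), which encodes the urokinase receptor, and 1700023H06Rik (r = 0.92). Plaur stood at 92.03 FPKM in DEX and 4.63 FPKM in VEH in leukemia 6 and between 1.1 and 7.22 FPKM in the other 10 libraries. Plaur is also expressed by myeloid cells, and the granulocyte markers of leukemia 6 summed to 1530 FPKM in DEX and 3822 FPKM in VEH. The part of myeloid cells in the levels of Plaur and Arrdc3 was not tested. For Arrdc4, the closest were Asxl1 (r = 0.94) and Cpa3 (r = 0.92), a mast cell protease gene.

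The wider pathway was described by 12 lists with 117 tested genes, none of them a member. Of these 117 genes, 7 rose and 17 fell with dexamethasone (limma adjusted p under 0.05), where 4.27% of all tested genes rose and 9.28% fell. The median log2 difference of all tested genes was -0.05. These lists were written with earlier results of these data known and carry no set test. Without the filter on low values the calls of Hk2, Mxd4 and Pik3r1, which held without any single leukemia, ended (limma adjusted p = 0.0556, 0.0626 and 0.0583). Rescaling to a fixed sum per library ended those of Akt2, Mapkap1, Smurf2 and Pik3r5 (adjusted p = 0.063 to 0.253), and median-of-ratios scaling ended those of Seh1l, Prdx2, Mnt and Nfe2l2 (adjusted p = 0.0677 to 0.135). In leukemias 2, 5 and 6 alone, calls of Slc2a3, Txnrd1, Pik3cd, Prkag2, Atf4, Ddit3 and Trp53 ended (adjusted p = 0.0543 to 0.129). The Hif1a call ended in leukemias 1, 3 and 4 alone (adjusted p = 0.116).

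Of 12 tested inhibitors of mTORC1 other than the 7 genes, 0 rose and 0 fell in the limma fit, 1 had an unadjusted p under 0.05, and the median log2 difference was 0.04. They include Tsc1 and Tsc2, which encode the complex on which DDIT4 acts, the subunits of GATOR1 (Depdc5, Nprl2 and Nprl3), Deptor and Akt1s1. The single differences lay between -0.16 and 0.17. Tsc2 averaged 9.02 FPKM in DEX libraries and 9.17 FPKM in VEH libraries, with an adjusted p of 0.859. With 4.27% of all tested genes higher and 9.28% lower, a count of 0 among 12 genes is near the background.

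Of 18 tested activators of mTORC1, 0 rose and 2 fell, with a median of -0.02. Rheb, the GTPase that the TSC complex inactivates, averaged 29.8 ± 5.43 FPKM in DEX libraries and 41.3 ± 5.46 FPKM in VEH libraries (SD, n = 6 each). Its log2 difference of -0.47 ± 0.11 (SE) had a limma adjusted p of 0.0273, and the call ended without leukemia 1, 5 or 6 (adjusted p = 0.072, 0.0688 and 0.0592). Seh1l, which encodes a GATOR2 subunit, fell by 0.22 (adjusted p = 0.0465), a call that ended without any single leukemia (adjusted p = 0.071 to 0.127). Mtor itself had a log2 difference of 0.01 (adjusted p = 0.927).

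Of 10 effectors of mTORC1, 0 rose and 2 fell, with a median of 0.00. Eif4ebp1, the translation repressor that mTORC1 phosphorylates, fell by 0.43 on the log2 scale (limma adjusted p = 0.0166). Eif4e, the cap-binding protein held by that repressor, fell by 0.34 (adjusted p = 0.0242). Without leukemia 1 or 5 the Eif4ebp1 call ended (adjusted p = 0.0577 and 0.0596), and without leukemia 1, 2, 4 or 5 the Eif4e call ended (adjusted p = 0.0604 to 0.079).

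Upstream, where PIK3IP1 acts, 2 of 7 tested class I PI3K subunits rose and 1 fell, with a median of 0.01. Pik3r1, a regulatory subunit, averaged 91.5 ± 37.6 FPKM in DEX libraries and 39.1 ± 11.3 FPKM in VEH libraries (SD, n = 6 each; limma adjusted p = 0.00874). In leukemia 6 it stood at 20.6 FPKM in DEX and 21.6 FPKM in VEH, and it was higher with dexamethasone in the other 5. Pik3r5 rose by 0.77 (adjusted p = 0.0264), which ended without leukemia 1, 4 or 5 (adjusted p = 0.055 to 0.0814). Pik3cd, the leukocyte-enriched catalytic subunit, fell by 0.45 (adjusted p = 0.0108).

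In the AKT and FOXO axis 2 of 12 tested genes rose and 0 fell, with a median of 0.04. Akt2 rose by 0.31 (limma adjusted p = 0.0364) and Mapkap1, an mTORC2 subunit, by 0.27 (adjusted p = 0.0458). Both calls were lost in most settings: Akt2 without leukemia 1, 2, 3, 4 or 6 (adjusted p = 0.0516 to 0.108) and Mapkap1 without leukemia 1, 2, 4, 5 or 6 (adjusted p = 0.0681 to 0.138). Of 10 tested genes of AMPK and its activator LKB1, 1 fell and 0 rose, with a median of -0.17. It was Prkag2, a regulatory subunit of AMPK, which fell by 0.62 (adjusted p = 0.00751).

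Among the relatives of the 3 alpha-arrestins, 4 of 5 arrestin genes were tested, and 0 rose or fell in the limma fit, with a median of 0.19; 2 had an unadjusted p under 0.05. Arrdc2 averaged 6.82 ± 3.31 FPKM in DEX libraries and 4.32 ± 1.36 FPKM in VEH libraries (SD, n = 6 each; log2 difference 0.50, adjusted p = 0.122). It was higher in 6 of 6 leukemias, with 13.2 FPKM in the DEX library of leukemia 2. Arrdc1 (log2 difference 0.04, adjusted p = 0.786), Arrb1 (-0.23, adjusted p = 0.268) and Arrb2 (0.34, adjusted p = 0.109) did not pass, and Arrdc5 averaged 0.66 FPKM in DEX libraries and 0.65 FPKM in VEH libraries. Taking leukemias 1, 3 and 4 alone, Arrb2 passed (0.68, adjusted p = 0.0102). In leukemias 2, 5 and 6 its log2 differences were 0.07, 0.02 and -0.09.

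Of 8 NEDD4-family ligases, which alpha-arrestins recruit, 1 rose and 0 fell, with a median of -0.12. Smurf2 rose by 0.60 (limma adjusted p = 0.0242), a call that ended without leukemia 1, 2, 3, 4 or 5 (adjusted p = 0.0519 to 0.0755). Of 12 tested genes of the thioredoxin system, to which TXNIP binds, 0 rose and 2 fell, with a median of -0.09. Txnrd1, the cytosolic thioredoxin reductase gene, averaged 25.6 ± 3.36 FPKM in DEX libraries and 34.0 ± 4.49 FPKM in VEH libraries (SD, n = 6 each; adjusted p = 0.00871). Prdx2 fell by 0.26 (adjusted p = 0.0492), a call that ended without leukemia 1, 2, 3, 4 or 5 (adjusted p = 0.0577 to 0.136). Txn1, thioredoxin itself, did not pass (0.15, adjusted p = 0.224).

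Of 8 tested glucose carriers and hexokinases, 0 rose and 2 fell, with a median of -0.24. Slc2a3, which encodes the glucose transporter GLUT3, averaged 30.4 ± 9.74 FPKM in DEX libraries and 43.1 ± 10.7 FPKM in VEH libraries (SD, n = 6 each). Its log2 difference was -0.51 ± 0.07 (SE; limma adjusted p = 0.00366), and it was lower in DEX in each leukemia. Hk2, the gene of hexokinase 2, averaged 2.46 ± 1.32 FPKM in DEX libraries and 5.46 ± 2.07 FPKM in VEH libraries (adjusted p = 0.00813). In leukemia 6 the Hk2 values were close, at 4.22 FPKM in DEX and 4.78 FPKM in VEH. Slc2a1, the gene of GLUT1, did not pass (-0.45, adjusted p = 0.082).

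The RNA levels of MondoA and MLX, known to act on Txnip and Arrdc4, moved in different directions. The list of their network also holds MAX and its partners. In it, 2 of 9 tested genes rose and 2 fell, with a median of -0.07. Mlxip, which encodes MondoA, ranged from 13.7 to 33.4 FPKM in DEX libraries and from 6.33 to 13.2 FPKM in VEH libraries. No DEX library was below a VEH library, and the log2 difference was 1.10 ± 0.09 (SE; limma adjusted p = 0.000499), higher in 6 of 6 leukemias. Mlx, its partner, fell by 0.37 (adjusted p = 0.0321), which ended without any single leukemia (adjusted p = 0.0547 to 0.067). Mxd4, a MAX-binding repressor, averaged 70.1 ± 15.9 FPKM in DEX libraries and 43.3 ± 12.7 FPKM in VEH libraries (adjusted p = 0.0114). Mnt, named after its value was seen, fell by 0.45 (adjusted p = 0.0493), which ended without leukemia 1, 3, 4 or 5 (adjusted p = 0.0998 to 0.131). Mlxip and Txnip were both higher in DEX libraries, while Arrdc4, also known to follow MondoA, was at most 1.39 FPKM in any library. The part of MondoA in the levels of Txnip and Arrdc4 was not tested.

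Of 7 tested stress factors known to induce DDIT4 or sestrins, 0 rose and 5 fell, with a median of -0.45. Of all tested genes, 4.27% rose and 9.28% fell. Atf4, the effector of the integrated stress response, averaged 62.8 ± 16.9 FPKM in DEX libraries and 85.8 ± 19.4 FPKM in VEH libraries (SD, n = 6 each; limma adjusted p = 0.00625). Ddit3, which encodes CHOP, averaged 8.87 ± 3.92 FPKM in DEX libraries and 14.7 ± 3.78 FPKM in VEH libraries (adjusted p = 0.00473). Hif1a, the hypoxia factor, averaged 39.4 ± 4.64 FPKM in DEX libraries and 54.5 ± 7.88 FPKM in VEH libraries (adjusted p = 0.0108). Each of the 3 was lower in DEX in all 6 leukemias. Trp53 (-0.36, adjusted p = 0.0114) and Nfe2l2 (-0.36, adjusted p = 0.0308), named after their values were seen, fell too. The Nfe2l2 call ended without leukemia 1, 2, 4 or 5 (adjusted p = 0.0719 to 0.0866). Also named after their values were seen, Epas1 (-0.51, adjusted p = 0.0663) and Cebpb (0.35, adjusted p = 0.0799) did not pass. Cebpb went the other way, higher in DEX in all 6 leukemias.

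**Figure D4:**
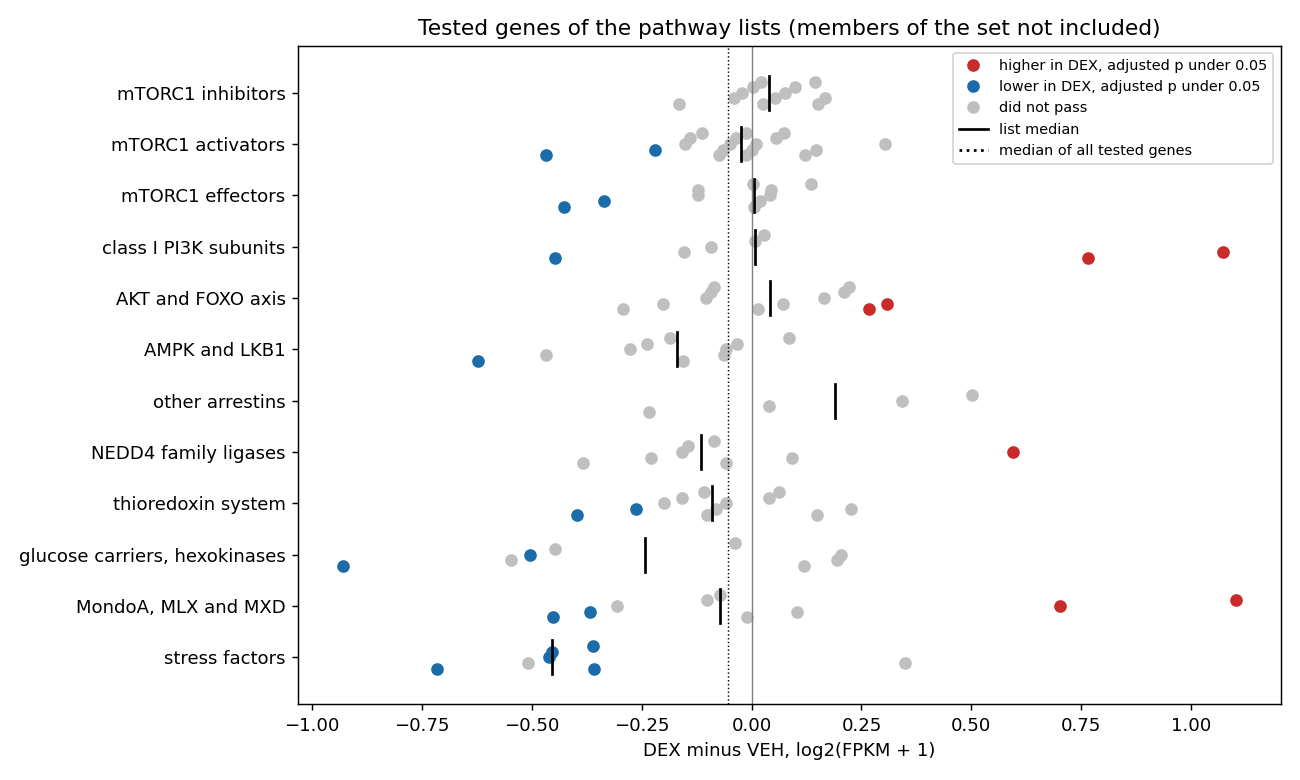
DEX minus VEH difference in log2(FPKM + 1) of each tested gene (point) of the 12 pathway lists, with list medians as black bars and the median of all tested genes, -0.05, as a dotted line; small vertical offsets only separate points. None of the 12 other mTORC1 inhibitors passed the limma test, where 4.27% of all tested genes rose and 9.28% fell. Of 7 stress factors 5 fell, and Mlxip stands highest in its list. The lists were written with earlier results of these data known.

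**Figure D5:**
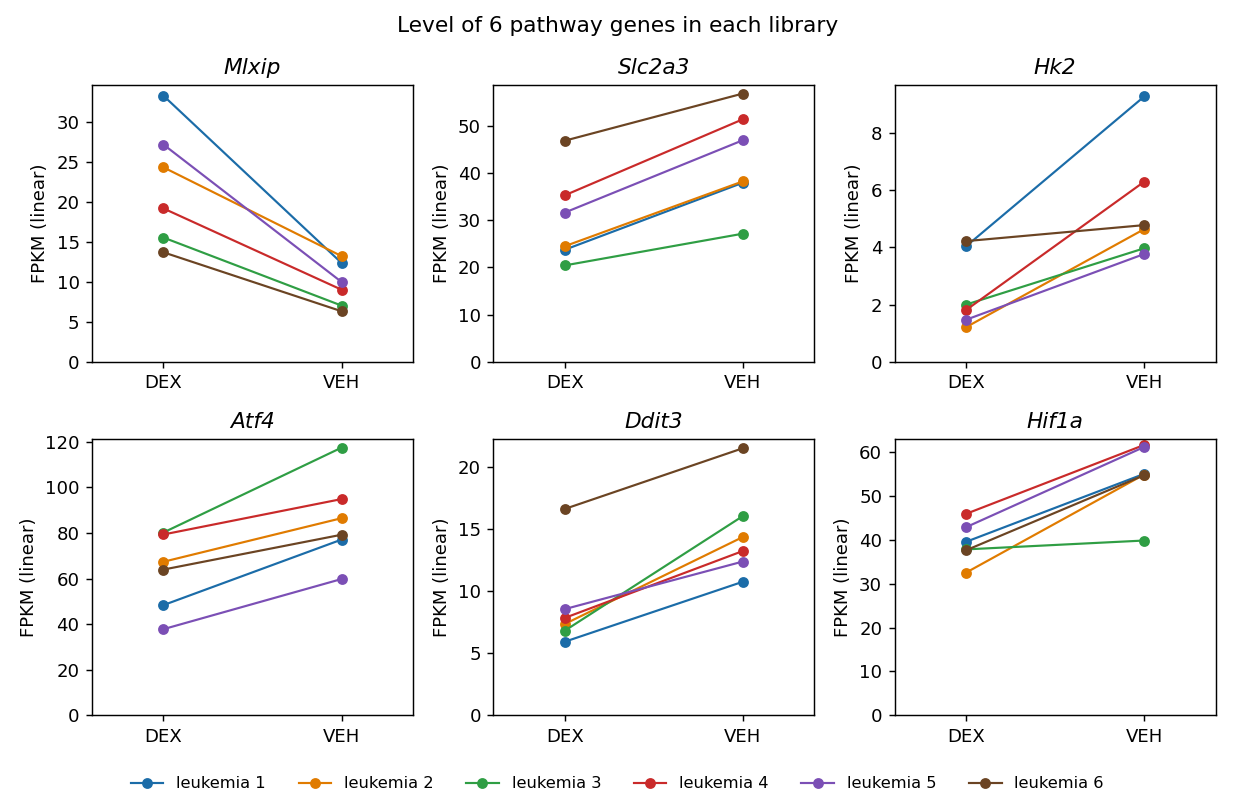
FPKM (linear axis) of 6 pathway genes in each library, DEX on the left and VEH on the right of each panel, with lines joining the libraries of a leukemia. Mlxip is higher in DEX in all 6 leukemias, and Slc2a3, Hk2, Atf4, Ddit3 and Hif1a are lower in DEX in all 6.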

How the data were processed

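RNA of marrow cells was extracted with Trizol after red cell lysis, and the kit was stranded, for total RNA, with 100 bp paired-end sequencing, per the labels' protocols. The authors deposited 1 table of FPKM on a linear scale; the submitters' processing notes name mm10, Bowtie2 (version 2), RSEM and edgeR without roles, and the annotation version is not given in the sources used here. Columns were matched to samples by the codes in the titles. The file holds no counts. Depth was estimated from the commonest product of FPKM and length in up to 1436 sparse genes of 400 to 700 bp, with an assumed fragment of 150 bp, and dropped where under 20% of genes lay in the peak.

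Values were analysed as log2(FPKM + 1) for genes with at least 1 FPKM in at least 6 of 12 libraries, in limma 3.58.1 (R 4.3.3; eBayes with trend), with leukemia and treatment as terms, two-sided, Benjamini-Hochberg over all 12358 genes, threshold 0.05. The code was tested on simulated data. Of genes given a log2 change of 0.5, 53% were called, and of those given 1, 87% were called. A gene that did not pass is therefore not shown to be unchanged. Libraries of a leukemia share its titled code, and their deviations from group means correlated at 0.551 to 0.817 across genes, against at most 0.205 between leukemias. Coordinates are from GENCODE M21 (GRCm38, the assembly of mm10), which matched 37693 of 38339 identifiers. Members and lists were chosen with earlier results of these data known. Named beside the members were 7 relatives, up to 3 called genes of each list with the smallest p, 2 most alike genes per member and the treatment check. Alternatives were the pseudocount (0.1), no filter, 2 other scalings, no trend, no block, each leukemia left out, and leukemias 1, 3 and 4 or 2, 5 and 6 alone, split by whether the DEX library's description carries an S number. Protein sequences were not used here.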

Additional observations from a re-analysis of the deposited data

Results flagged for a closer look

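Of 40 groups of 6 values checked with Dixon's ratio for a value far from the rest, 6 stood out. The threshold is met by about 1 in 20 independent, normally distributed groups. These groups share genes and include linear FPKM, so that rate may not apply and the 6 are only a description. Arrdc3 in the DEX library of leukemia 6 was at 55.1 FPKM, with the next at 16.2 FPKM. The log2 difference of Sesn3 in leukemia 6 was -0.48, against 0.35 to 0.64 in the others. Arrdc2 stood apart in the DEX library of leukemia 2 (13.2 FPKM), in the VEH library of leukemia 3 (6.94 FPKM), and in its log2 difference in leukemia 2 (1.70). Ddit4l in the VEH library of leukemia 2 was at 0.04 FPKM, with the other VEH libraries at 0.01 FPKM or listed at 0.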

How the results depend on the processing

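Genes higher and lower with dexamethasone numbered 528 and 1147 in the fit reported. With no low-value filter they numbered 181 and 370, rescaled to TPM 268 and 1844, without the replicate block 35 and 46, in leukemias 2, 5 and 6 alone 188 and 257, and leaving out 1 leukemia 233 to 532 and 425 to 1042. Lower genes numbered 718 with median-of-ratios scaling and 523 in leukemias 1, 3 and 4 alone. The median of all tested genes moved to -0.16 with TPM. Of the pathway genes (7 higher, 17 lower), 1 and 8 were called without the filter, 0 and 0 without the replicate block, 1 and 3 in leukemias 2, 5 and 6 alone, and 3 to 5 and 9 to 18 leaving out 1 leukemia; 3 were higher with TPM and 8 lower in leukemias 1, 3 and 4 alone. The leukemia F test called 4 members, against 1 without the filter (Arrdc4, adjusted p = 0.0176), 1 with TPM, 2 without the variance trend, 2 in leukemias 2, 5 and 6 alone and 2 to 4 leaving out 1 leukemia. The median change over the 7 members was 0.77, and it was 0.62 with TPM and 0.83 with median-of-ratios scaling. With TPM every member changed less than in the fit reported. Ddit4 then changed by 1.54, Txnip by 1.365, Arrdc3 by 0.62 and Pik3ip1 by 0.65. Sesn1 changed by 0.38, Sesn3 by 0.19 and Arrdc4 by 0.02. Leaving out 1 leukemia, the median over the members was 0.53 to 0.88. The same ranges for marker sums (log2) were -1.08 to -0.42 for B-lineage, -0.64 to -0.35 for NK, -0.17 to -0.10 for T-lineage, -0.90 to -0.16 for erythroid, -0.82 to -0.42 for granulocyte, -0.95 to -0.42 for monocyte, -0.30 to -0.22 for stromal and -0.063 to 0.12 for megakaryocyte markers, the last turning to -0.063 without leukemia 3. The stromal sum was mostly Pecam1, and the other markers of that list averaged higher in DEX libraries. Arrdc4 turned to -0.10 in leukemias 2, 5 and 6 alone. Sesn2 (0.03) and Arrdc1 (0.04), neither of them called, also turned: Sesn2 to -0.04 with TPM, -0.17 in leukemias 2, 5 and 6 alone and -0.01 to -0.06 without leukemia 3, 4 or 5, and Arrdc1 to -0.09 with TPM and -0.01 without leukemia 6. Depth is estimated only, so small differences of Arrdc4 cannot be bounded. The causes were not tested.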

Other observations

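Leukemia 6 stood apart in several of the values above. In it Sesn3 (9.46 FPKM in DEX, 13.6 FPKM in VEH) and Sesn2 (0.98 FPKM in DEX, 2.52 FPKM in VEH) were lower in DEX, Pik3r1 hardly differed (20.6 FPKM in DEX, 21.6 FPKM in VEH), and Arrdc3, Plaur and Tsc22d3 reached their highest DEX levels (55.1, 92.03 and 220.5 FPKM). Ddit4, Txnip, Sesn1 and Pik3ip1 were higher in DEX there as in the other leukemias. Each arm is 1 mouse, so whether leukemia 6 responds differently could not be tested. Its granulocyte markers summed to 1530 FPKM in DEX and 3822 FPKM in VEH, and its monocyte markers to 44.9 FPKM in DEX and 142.6 FPKM in VEH; their part in these values was not tested.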
